A study of Homo sapiens with 9 samples.

Results

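Aldehyde dehydrogenase genes were followed in MDA-MB-231 cells, an established human line of basal-like breast cancer, in control cells and in cells without intact FBXL12. The genes were chosen by symbol: the 10 symbols ALDH1A1, ALDH1A3, ALDH1B1, ALDH2, ALDH3A1, ALDH3A2, ALDH3B1, ALDH7A1, ALDH9A1 and ALDH18A1, out of 61155 symbols counted in every library. All 10 were present in the tables, 8 passed the filter on low counts and were tested, and ALDH1A1 and ALDH3A1 did not pass it. The control group (WT) was a population of FBXL12-WT cells that had received a scrambled guide RNA, and the other groups were the knockout clones FBXL12-KO #1 (KO1) and FBXL12-KO #2 (KO2), each with 3 RNA-seq libraries. All 3 groups are the same cell line, no further treatment is named in the labels, and each knockout group is a single clone, so a clone's own history and the loss of FBXL12 cannot be told apart within it. Whether a group's 3 libraries are separate cultures is not stated in the labels, and the p-values below rest on the variation among libraries, which could be technical alone.

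Aldehyde dehydrogenases are enzymes that oxidise reactive aldehydes to carboxylic acids with NAD or NADP as the electron acceptor. Family members differ in substrate and in place: some make retinoic acid from retinal, some clear aldehydes from ethanol or from oxidised lipids, and some serve amino acid and choline metabolism. Aldehydes that are not cleared can crosslink DNA, and such crosslinks are repaired through the Fanconi anaemia pathway, in which FANCD2 acts. FBXL12 is an F-box protein, the substrate-recognising part of an SCF ubiquitin ligase, and ALDH3 proteins have been reported among its substrates. The libraries measure RNA only, so protein stability was not measured here.

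Library totals ran from 52427841 to 97243363 counts, and 3 counts, the limit that a count of 0 allows, correspond to 0.0305 to 0.0574 CPM, depending on the library (CPM, the usual depth-normalised count, here on TMM-scaled library totals, the scale of all levels below unless a length is named; the limit covers counting error only). FBXL12 itself was at 22.3 ± 1 CPM in WT (SD, n = 3, as for all ± values of levels), 9.64 ± 0.282 in KO1 and 5.94 ± 0.542 in KO2. This is a log2 change of -1.21 ± 0.08 (SE) in KO1 (adjusted p = 2.65e-08) and -1.91 ± 0.08 in KO2 (adjusted p = 7.29e-11), and a guide-directed cut need not remove the transcript. Of 10 genes taken as markers of basal-like breast cancer cells, 3 were below 1 CPM in all 3 groups. These were KRT5, KRT14 and KRT17, the basal keratins, with KRT5 at 0 counts in both clones. The summed level of the 10 was 7283 to 7761 CPM in WT, 8425 to 8656 in KO1 and 9068 to 9259 in KO2. VIM, AXL and CD44 made up most of that sum (2811, 1666 and 1034 CPM in WT). Of the 7 tested, 4 rose and 1 fell in each clone, beside 34.8% of all genes called in KO1 and 49.4% in KO2. The 1 that fell was EGFR in KO1 and CAV1 in KO2. Of 7 leukocyte markers all had group means below 1 CPM, with MS4A1 at 0 counts, and CSF1R exceeded 1 CPM in 4 libraries, reaching 1.22. The 7 luminal markers, with PGR at 0, summed to 14.95 to 16.3 CPM in WT, 17.4 to 18.3 in KO1 and 10.8 to 11.8 in KO2, so the groups did not overlap. All 4 luminal markers tested were lower in KO2 than in WT, though GATA3 in KO2 was not called in several alternative fits. EPCAM had a log2 change of 1.34 in KO1 (adjusted p = 3.59e-05) and -1.09 in KO2 (adjusted p = 0.000436). In KO1 ERBB3 fell (-0.51, adjusted p = 0.00263), and FOXA1 (-0.01) and GATA3 (0.16) were not called. The higher luminal sum in KO1 came mostly from EPCAM, at 1.77 CPM in WT and 4.52 in KO1. The part of these marker differences in the results below was not tested. The 5 endothelial markers summed to 14.8 to 15.8 CPM in WT, 21.8 to 22.4 in KO1 and 19 to 21.6 in KO2, nearly all of it from KDR, and the other 4 had group means below 1 CPM.

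Promoter sequence is shown for the 3 members whose upstream window lay outside annotated exons: the 2 ALDH3 genes that were tested, which relate to the reported FBXL12 substrates, and ALDH18A1, the member that was lower in KO1. Each is the 250 bases before a transcription start in RefSeq (GRCh38.p14), 5′ to 3′ on the gene's strand, with capitals marking an E-box (CACGTG, read on both strands).
ALDH3A2, chr17:19647886-19648135, plus strand: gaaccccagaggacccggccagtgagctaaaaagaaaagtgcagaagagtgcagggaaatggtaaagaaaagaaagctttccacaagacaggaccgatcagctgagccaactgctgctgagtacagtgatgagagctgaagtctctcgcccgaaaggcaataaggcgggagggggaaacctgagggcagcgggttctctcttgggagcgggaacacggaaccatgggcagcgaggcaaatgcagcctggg
ALDH3B1, chr11:68008297-68008546, plus strand: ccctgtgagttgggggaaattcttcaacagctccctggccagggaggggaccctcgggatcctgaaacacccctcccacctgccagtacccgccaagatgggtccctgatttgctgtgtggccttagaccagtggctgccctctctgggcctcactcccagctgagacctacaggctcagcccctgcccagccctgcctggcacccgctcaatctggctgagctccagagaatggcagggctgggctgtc
ALDH18A1, chr10:95656712-95656961, minus strand: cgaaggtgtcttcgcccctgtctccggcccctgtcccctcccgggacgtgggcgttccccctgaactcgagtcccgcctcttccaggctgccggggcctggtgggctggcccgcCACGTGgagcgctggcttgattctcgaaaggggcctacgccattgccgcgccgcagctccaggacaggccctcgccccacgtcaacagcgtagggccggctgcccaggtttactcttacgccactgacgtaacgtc
Each window was searched on both strands for 5 letter patterns, and the share of 35116 promoter windows of the same length that held each pattern is given with it. The core of the element bound by NRF2, a regulator of detoxifying enzymes, was spelled TGACNNNGC and was found in 10.9% of windows. An amino acid response element was spelled TGATGNAA and was found in 3.14%. The E-box was found in 6.34%, a half-site of nuclear receptors, retinoic acid receptors among them, spelled AGGTCA, in 12.1%, and the core of the xenobiotic response element, spelled GCGTG, in 32.2%. The NRF2 core and the reverse strand of the half-site share their first 4 letters. The ALDH18A1 window held 1 E-box, starting at position -136 from the start site, and the ALDH3A2 and ALDH3B1 windows shown held none of the 5 letter patterns. A second RefSeq start of ALDH3A2, whose window overlaps an exon and is not shown, had an E-box at position -47 and GCGTG at -76, and the ALDH1A3 window had the GCGTG core at -197 and -43. These are matches of letters and say nothing of binding.

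Compared per kilobase of the principal transcript (RPKM, the scale that allows genes to be ranked), most of the family's RNA came from 4 members. In WT the order was led by ALDH18A1 at 49.3 ± 0.733 RPKM, ALDH9A1 at 41.9 ± 0.312, ALDH1B1 at 34.5 ± 1.47 and ALDH7A1 at 25.7 ± 0.555, and no neighbours among these 4 overlapped in their libraries. ALDH3A2 followed at 14.8 ± 0.31 RPKM and ALDH3B1 at 8.47 ± 0.622. ALDH1A3 and ALDH2 were low, at 1.6 ± 0.0341 and 0.975 ± 0.0574 RPKM, or 0.821% and 0.501% of the sum over the 19 family genes, and ALDH1A1 and ALDH3A1 were near 0. The order at the top differed between groups: in KO1 ALDH9A1 came first and ALDH18A1 second, and in KO2 ALDH9A1 led with 51.3 ± 0.337 RPKM, ahead of ALDH18A1 at 49.5 ± 1.23 and without overlap of the libraries, while ALDH3A2 stood at 28.4 ± 0.772, above ALDH7A1 at 21.8 ± 0.186. Summed over the 19 genes, the family reached 194.5 ± 3.34 RPKM in WT, against 181.5 ± 1.13 for KO1 and 213 ± 0.287 for KO2, and the libraries of the 3 groups did not overlap. With the length of all exons merged in place of the principal transcript, the sums kept that order (145.8 ± 2.71, 133.3 ± 0.596 and 160.3 ± 0.554 RPKM), but the order of genes depended on the length used. ALDH18A1 then led in KO2, as it did in WT, at 44.1 RPKM against 41.8 for ALDH9A1 and again without overlap, and in KO1 it ranked below both ALDH9A1 and ALDH1B1. ALDH7A1, whose merged exons span 17970 bases against 4964, then ranked below ALDH3A2 in WT (7.09 against 8.97 RPKM).

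**Figure D1:**
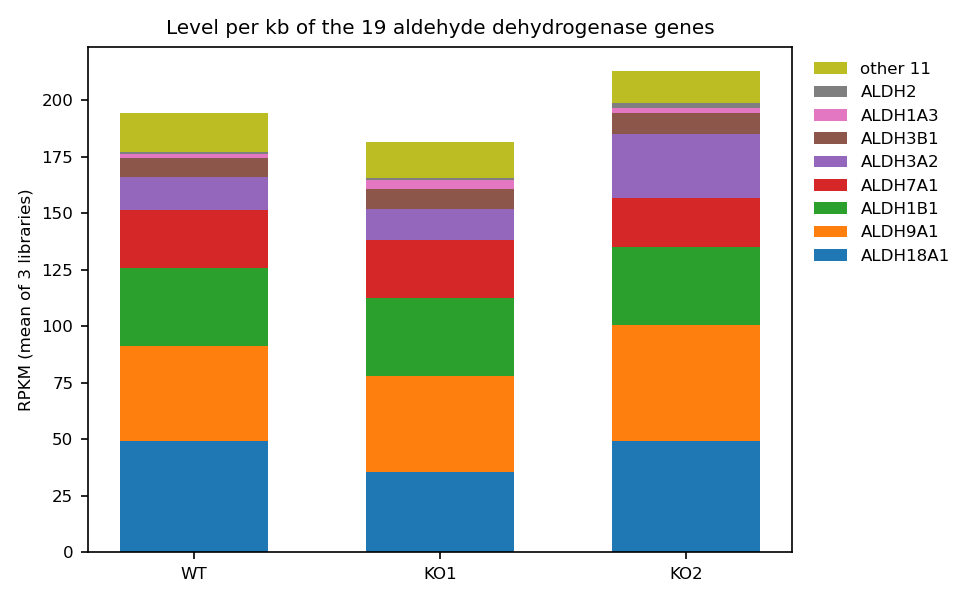
Stacked level per kilobase (RPKM on the principal transcript, mean of 3 libraries) of 8 members and the sum of the other 11 family genes in WT, KO1 and KO2. The ALDH18A1 segment is shorter in KO1 and the ALDH3A2 segment taller in KO2, and the totals are 194.5, 181.5 and 213 RPKM.

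The design implies 3 comparisons: each clone with WT, and the clones with each other, the last being the test of whether the clones differ. Of the 8 tested members, 1 was higher and 1 lower in KO1 than in WT and 6 were not called at an adjusted p under 0.05, and 4 were higher and 1 lower in KO2 than in WT with 3 not called. Over all 17759 genes tested, 34.8% were called in KO1 (18% up, 16.8% down) and 49.4% in KO2 (24.7% up, 24.7% down), so 2 of 8 and 5 of 8 members are counts close to that background. The median log2 change of the 8 was -0.0038 in KO1 and 0.23 in KO2, beside -0.0049 and -0.0077 over all genes. Between the clones 6 of 8 members differed, 2 higher and 4 lower in KO1 than in KO2, where 48.9% of all genes did (23.9% up, 24.9% down). ALDH1A3 was the 1 member called in the same direction in both clones, none was lower in both, none was called in opposite directions, 1 was called in KO1 alone and 4 in KO2 alone, and 2 (ALDH1B1 and ALDH3B1) in neither. The share of all genes in each of these cross-clone classes was not counted, so the counts are a description only. Both comparisons with WT share the same control libraries. The cells were sequenced in bulk, so fewer cells with a transcript and less of it per cell cannot be told apart.

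**Figure D2:**
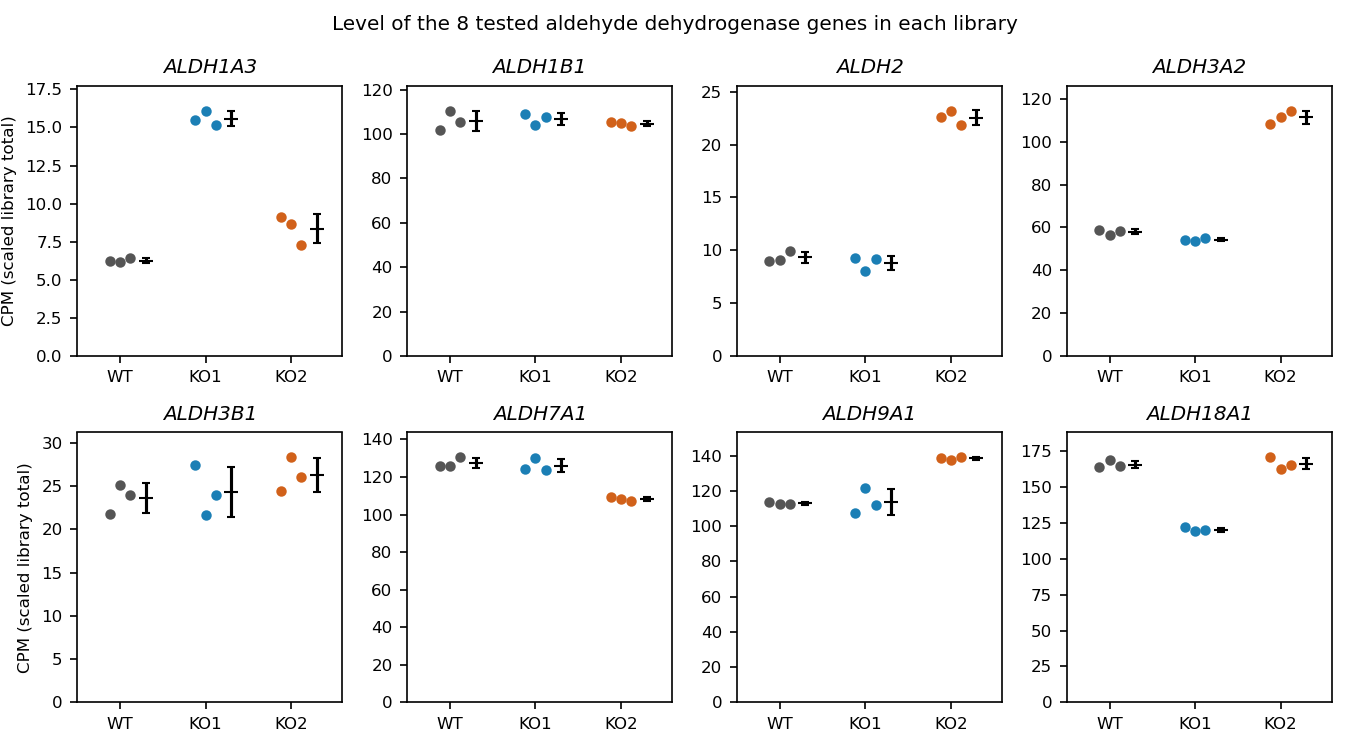
Level of each of the 8 tested members (CPM on the scaled library total, axes from 0) in the 3 libraries of each group (points), with mean and SD beside them. ALDH1A3 is highest in KO1, ALDH2 and ALDH3A2 are highest in KO2, ALDH18A1 is lowest in KO1, and ALDH1B1 lies between 102 and 111 CPM in all 9 libraries.

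The ALDH3 enzymes oxidise medium- and long-chain aldehydes that arise from lipids. ALDH3A2, the fatty aldehyde dehydrogenase of the endoplasmic reticulum, whose loss causes Sjögren-Larsson syndrome, lies at chr17:19648136-19677598 (GRCh38, GENCODE 29, plus strand). It was at 58.8, 56.5 and 58.5 CPM in the WT libraries 1 to 3, at 54.1, 53.6 and 55.2 in KO1 and at 108.5, 111 and 115 in KO2. The KO2 libraries were far above all others, and the KO1 libraries lay slightly below those of WT without overlap. In KO2 the level was 1.92-fold that of WT (log2 0.94 ± 0.04, 95% interval 0.85 to 1.04, adjusted p = 1.42e-10), and in KO1 the difference of -0.09 ± 0.04 did not pass the threshold (adjusted p = 0.106). The clones differed by -1.04 ± 0.04 (KO1 minus KO2, adjusted p = 3.26e-11). With a trend of the changes with GC content removed, the KO1 value was -0.14 and passed (adjusted p = 0.002).

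ALDH3B1, a membrane-associated enzyme that acts on lipid-derived aldehydes, lies at chr11:68008578-68029282 (plus strand). Its libraries read 21.7, 25.15 and 23.9 CPM for WT, 27.4, 21.7 and 23.9 for KO1 and 24.5, 28.3 and 26.1 for KO2, and the 3 groups overlapped. Neither clone passed the test against WT. The log2 difference was 0.05 ± 0.09 for KO1 (95% interval from -0.14 to 0.23, adjusted p = 0.717), and KO2 had 0.16 ± 0.09 (from -0.03 to 0.34, adjusted p = 0.142). KO1 minus KO2 was -0.11 (adjusted p = 0.299). These calls depended on GC content: with its trend removed, ALDH3B1 was 0.23 higher in KO1 (adjusted p = 0.00116) and 0.37 higher in KO2 (adjusted p = 4.2e-06), and KO1 minus KO2 was -0.14 (adjusted p = 0.0294).

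ALDH3A1, an aldehyde dehydrogenase abundant in cornea that acts on lipid peroxidation products, lies near ALDH3A2 on the same chromosome (chr17:19737984-19748943, minus strand). It had 2, 1 and 1 counts in WT, 0 in each KO1 library, and 4, 5 and 44 counts in KO2. Library 3 of KO2, at 0.694 CPM, was 9.07 times the highest of the other 8 libraries, and the remaining 2 KO2 libraries were at 0.0765 and 0.0759 CPM. Pooled, KO2 libraries 1 and 2 held 9 counts against 4 in WT, a CPM ratio of 4.23 with a 95% exact binomial interval of 1.18 to 18.8, and KO2 library 3 alone gave a ratio of 38.5 (14 to 148) against WT (counting error only). Library 3 was set apart after its counts were seen. In an edgeR fit without the filter, ALDH3A1 in KO2 had a log2 change of 3.85 (adjusted p = 1.13e-05), and without KO2 library 3 it had 1.98 (adjusted p = 0.355). All of these levels are below 1 CPM, and the KO1 libraries, at 0 counts, could lie at up to 3 counts each. An antisense gene, AC005722.3, shares 98 exonic bases with ALDH3A1 and held at most 4 counts.

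The ALDH1 enzymes include those that make retinoic acid. ALDH1A3, which oxidises retinal to retinoic acid and is widely used as a marker of stem-like breast cancer cells, lies at chr15:100877714-100916626 (plus strand). It was at 6.25, 6.14 and 6.40 CPM in WT, at 15.5, 16.1 and 15.1 in KO1 and at 9.11, 8.63 and 7.29 in KO2. The 3 groups did not overlap. ALDH1A3 rose 2.49-fold in KO1 (log2 1.31 ± 0.09, adjusted p = 3.68e-08) and 1.33-fold in KO2 (log2 0.41 ± 0.09, adjusted p = 0.00126), and KO1 exceeded KO2 by 0.90 ± 0.09 (adjusted p = 3.68e-07). An antisense gene, AC015712.2, shares 1585 exonic bases with it and held at most 128 counts in a library against 1320 for ALDH1A3, and without a known strand setting their reads cannot be fully told apart.

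ALDH1A1, the other retinal dehydrogenase among the members and the enzyme most often linked to the Aldefluor assay of stem-like cells, lies at chr9:72900662-73080442 (minus strand). It was all but undetected: 2, 1 and 1 counts for WT, 0, 3 and 2 for KO1 and 0, 0 and 111 for KO2. The 111 counts of KO2 library 3 are 1.75 CPM, 46.1 times the highest other library, and 97.2 times (36.9 to 363) the pooled WT level. That interval covers counting error only, and library 3 was set apart after its count was seen. In KO2 libraries 1 and 2 together the count was 0 against 4 in WT, a difference not detectable at this depth. AKR1B10, an aldo-keto reductase that reduces retinal, stood out in the same library, with 14, 3 and 8 counts for WT, 5, 14 and 13 for KO1 and 25, 36 and 150 for KO2. Counting genes with at least 20 counts in a library and over 3 times the CPM of the highest other library gave 7 genes in KO2 library 3 and 0 or 1 in each of the other 8, and ALDH1A1, ALDH3A1 and AKR1B10 were among the 7.

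**Figure D3:**
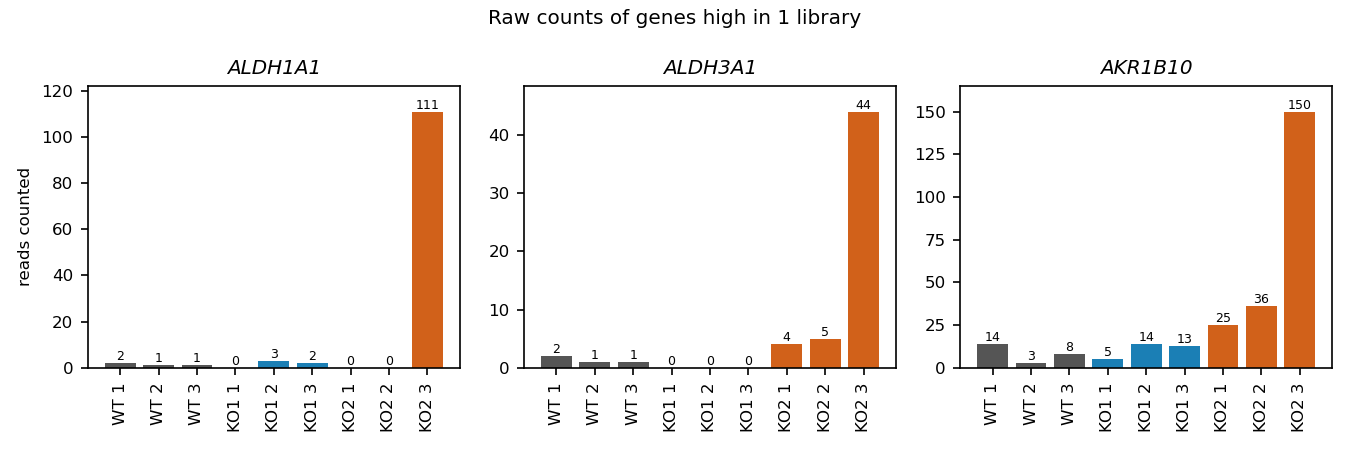
Raw counts of ALDH1A1, ALDH3A1 and AKR1B10 in each of the 9 libraries, with each count written above its bar. KO2 library 3 holds 111, 44 and 150 counts, the highest of each gene.

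ALDH1B1 and ALDH2 are mitochondrial enzymes of acetaldehyde oxidation. ALDH2, the main enzyme that clears acetaldehyde formed from ethanol (chr12:111766887-111817529, plus strand), was at 8.97, 9.065 and 9.96 CPM in WT, at 9.24, 8.05 and 9.15 in KO1 and at 22.6, 23.2 and 21.8 in KO2. The KO2 libraries stood apart, and those of KO1 and WT overlapped. ALDH2 rose 2.42-fold in KO2 (log2 1.27 ± 0.08, interval 1.11 to 1.44, adjusted p = 3.61e-09), and KO1 minus WT was -0.08 ± 0.08 (95% interval from -0.25 to 0.09, adjusted p = 0.457). The clones differed by -1.35 ± 0.08 (adjusted p = 1.13e-09).

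ALDH1B1 (chr9:38392664-38398661, plus strand) was at 102, 111 and 105.5 CPM in WT, at 109, 104 and 108 in KO1 and at 105.5, 105 and 103.5 in KO2. The groups overlapped throughout. Its log2 difference from WT was 0.01 ± 0.04 for KO1 (95% interval from -0.08 to 0.10, adjusted p = 0.841), and KO2 had -0.02 ± 0.04 (from -0.11 to 0.07, adjusted p = 0.768).

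Among the members of amino acid and amine metabolism, ALDH18A1 (chr10:95605929-95656706, minus strand) encodes the mitochondrial enzyme that begins proline synthesis from glutamate. It was at 164, 168 and 164 CPM in WT, at 122, 119 and 119.6 in KO1 and at 171, 163 and 165 in KO2. The KO1 libraries were all lower than the rest, and KO2 overlapped WT. ALDH18A1 fell by 0.46 ± 0.04 on the log2 scale in KO1, to 0.726 of the WT level (adjusted p = 3.41e-07), and KO2 minus WT was 0.01 ± 0.04 (95% interval from -0.07 to 0.09, adjusted p = 0.911). The clones differed by -0.47 ± 0.04 (adjusted p = 5.93e-08).

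ALDH7A1, or antiquitin, acts in lysine breakdown and on betaine aldehyde (chr5:126531200-126595418, minus strand). It was at 126, 126 and 131 CPM in WT, at 124, 129.9 and 124 in KO1 and at 109, 108 and 107 in KO2. The KO2 libraries all lay below the WT range, and the KO1 libraries overlapped it. In KO2 it fell by 0.23 ± 0.04 on the log2 scale (adjusted p = 0.000162), its difference in KO1 was -0.02 (adjusted p = 0.78), and KO1 was 0.22 ± 0.04 above KO2 (adjusted p = 0.00028).

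ALDH9A1, which oxidises aminobutyraldehyde and trimethylaminobutyraldehyde on the way to carnitine (chr1:165662216-165698863, minus strand), was at 114, 112 and 112.5 CPM in WT, at 107.5, 121.5 and 112 in KO1 and at 139, 137 and 139 in KO2. The KO2 libraries were above all others, and the KO1 libraries spanned the WT range. It rose 1.23-fold in KO2 (log2 0.29 ± 0.05, interval 0.20 to 0.39, adjusted p = 7.5e-05), with a difference of 0.01 in KO1 (adjusted p = 0.903), and KO1 minus KO2 was -0.28 ± 0.05 (adjusted p = 8.76e-05).

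**Figure D4:**
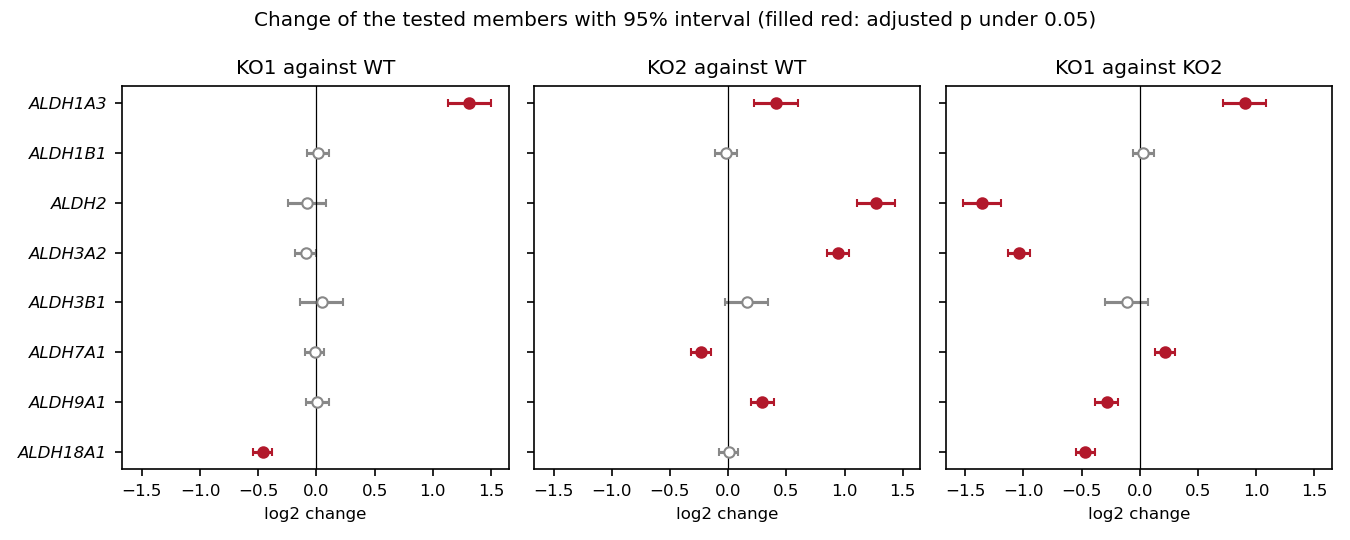
Log2 change of the 8 tested members in KO1 against WT, KO2 against WT and KO1 against KO2, with 95% intervals from the edgeR fit; filled red points have an adjusted p under 0.05. In KO1 ALDH1A3 and ALDH18A1 are called, in KO2 ALDH1A3, ALDH2, ALDH3A2, ALDH7A1 and ALDH9A1, and between the clones 6 members.

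Genes near each member on its chromosome were compared to show how the surrounding region behaved. For each member the 10 protein-coding genes on either side and a mean log2 CPM no lower than 2 were taken (20 genes, 16 for ALDH1A3 near a chromosome end). Around ALDH18A1, 18 of 20 neighbours were lower in KO1, with a median log2 change of -0.29 beside -0.46 for ALDH18A1 itself, and 2 neighbours had changed as far; the part of this regional shift in the fall of ALDH18A1 was not tested. Around ALDH1A3, the neighbours' median was 0.13 in KO1 and -0.50 in KO2, where 14 of 16 were lower and none reached the 0.41 of ALDH1A3. Around ALDH2 in KO2 the median was -0.24, with 15 of 20 lower and 1 neighbour at or past the 1.27 of ALDH2. Around ALDH3A2 in KO2 it was -0.01, with 1 neighbour at or past 0.94. For ALDH7A1 and ALDH9A1 in KO2 the medians were 0.11 and -0.02, and 2 of 20 neighbours of each moved as far as the member in its direction. Around ALDH3B1, 16 of 20 neighbours were lower in each clone (medians -0.23 and -0.34), and with the GC trend removed these medians were 0.04 and -0.09. Between the clones (KO1 minus KO2), 15 of 16 neighbours of ALDH1A3 were higher, with a median of 0.71 beside 0.90 for ALDH1A3 and 3 at or past it, and 18 of 20 neighbours of ALDH18A1 were lower, with a median of -0.37 beside -0.47 and 6 at or past it. Neighbours of ALDH2 went the other way (median 0.34 beside -1.35), and those of ALDH3A2 had a median of -0.05 beside -1.04. FBXL12's own neighbours had medians of -0.38 in KO1 and -0.78 in KO2.

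**Figure D5:**
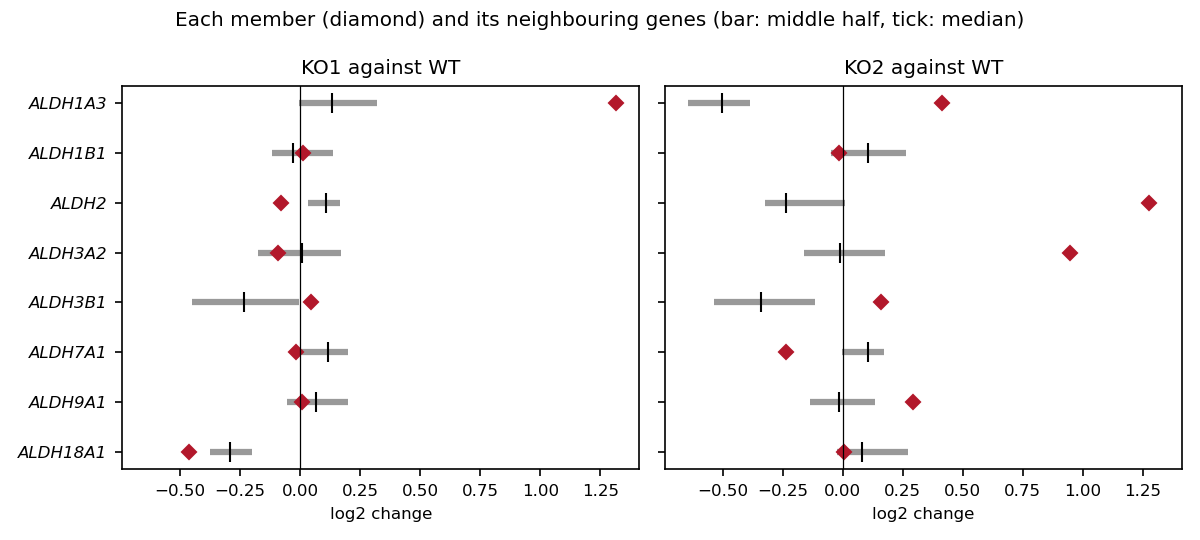
Log2 change of each tested member (red diamond) beside that of its neighbouring genes (grey bar, the middle 50% of them; tick, median) in KO1 and in KO2 against WT. In KO1 the diamonds of ALDH1A3, ALDH2, ALDH3B1, ALDH7A1 and ALDH18A1 lie outside the bar. That of ALDH18A1 lies below a bar that is itself below 0. In KO2 those of ALDH1A3, ALDH2, ALDH3A2, ALDH3B1, ALDH7A1 and ALDH9A1 lie outside. Many neighbours also lie outside a bar of the middle 50%.

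Of the remaining 9 genes of the family, 7 were tested. In KO1, 1 rose and 3 fell, and in KO2, 1 rose and 3 fell, with medians of -0.20 and 0.13. These are 4 of 7 called in each clone, beside 34.8% of all genes in KO1 and 49.4% in KO2. ALDH5A1, the succinic semialdehyde dehydrogenase of GABA breakdown, was higher in KO1 (8.02 to 12.5 CPM, log2 0.65, adjusted p = 2.56e-05) and lower in KO2 (5.14 CPM, log2 -0.64, adjusted p = 1.78e-05), and was the 1 family gene called in opposite directions. Of the 20 neighbours of ALDH5A1, 18 were lower in KO2 (median -0.33), and 3 had fallen as far as ALDH5A1. In KO1, 16 of them were lower (median -0.17) and none reached the rise of ALDH5A1. ALDH4A1, which ends proline breakdown, fell in both clones (log2 -0.38, adjusted p = 0.0189, and -0.62, adjusted p = 0.000535), although its KO1 call was lost on leaving out WT library 2 or 3 or KO1 library 2 or 3 (adjusted p up to 0.0802) and with the GC trend removed (-0.18, adjusted p = 0.0571). With that trend removed the KO2 change of ALDH4A1 was -0.39 and stayed called (adjusted p = 0.000212). ALDH16A1, a family member that lacks the catalytic cysteine in mammals, fell by 0.59 and 0.87 (adjusted p = 0.000987 and 1.79e-05) and shares 152 exonic bases with PIH1D1, a gene with up to 13443 counts. With the GC trend removed the values were -0.33 and -0.56. Of the 20 neighbours of ALDH16A1, 19 were lower in KO1 (median -0.25) and 13 in KO2 (median -0.16), none as far as ALDH16A1. ALDH6A1, of valine breakdown, fell by 0.38 in KO1 (adjusted p = 0.00013), where all 20 of its neighbours were lower (median -0.32), and had 0.13 in KO2 (adjusted p = 0.0682). ALDH8A1 was called in KO2 at a mean of 0.238 CPM (log2 1.35 ± 0.54, adjusted p = 0.0498), but the call was lost under DESeq2 (adjusted p = 0.0804), without the filter, with the replicate block and without any 1 of WT library 1 or 3, KO1 library 1, 2 or 3, or KO2 library 3. The lowest values were 0.77 without KO2 library 3 (adjusted p = 0.312) and 0.89 without WT library 1 (adjusted p = 0.221). ALDH1L1 and ALDH1L2, the folate enzymes, had group means below 1 CPM and were not called, although ALDH1L1 in KO2 passed with the GC trend removed (0.55, adjusted p = 0.0238) and ALDH1L2 in KO2 passed without WT library 3 (1.17 against 0.70, adjusted p = 0.0344). The genes ALDH1A2 and ALDH3B2 were not tested, ALDH3B2 with 0 counts in every library.

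The surrounding pathways were followed through lists that were chosen by function, and their counts are to be read beside the 34.8% of all genes called in KO1 (18% up, 16.8% down) and the 49.4% called in KO2. Among 13 aldehyde and carbonyl reductases, which remove aldehydes by reduction instead of oxidation, 11 were tested; 3 rose and 1 fell in KO1 (median 0.15), and 6 rose and 2 fell in KO2 (median 0.38; 5 and 2 without KO2 library 3); 4 of 11 in KO1 is near the share of all genes. AKR1C3, which reduces prostaglandins, steroids and retinal, rose from 4.09 CPM to 13.7 in KO1 (log2 1.74, adjusted p = 7e-09) and 10.8 in KO2 (1.39, adjusted p = 1.93e-08), and AKR1C1 rose by 1.24 and 2.18 (adjusted p = 0.00103 and 2.06e-06); reads of these close relatives may be shared between them. DHRS4, a peroxisomal carbonyl reductase, rose by 1.18 in KO2 (adjusted p = 7.18e-07), and CBR4 fell by 0.62 there (adjusted p = 1.86e-06). AKR1B10 in KO2 had a log2 change of 3.34 (adjusted p = 0.00536), or 2.19 (adjusted p = 0.00154) without KO2 library 3. Of 8 alcohol dehydrogenases and formaldehyde-clearing enzymes only ADH5 and ESD were tested. ADH5, the glutathione-dependent formaldehyde dehydrogenase, was not called in either clone (log2 0.01, adjusted p = 0.95, and 0.13, adjusted p = 0.0958). In KO2 it passed under upper quartile scaling (0.16, adjusted p = 0.0451) and in the fit of only the 2 groups compared (0.12, adjusted p = 0.0254). It also passed in KO2 without WT library 1 (adjusted p = 0.0436) or KO1 library 2 (adjusted p = 0.03). ESD, the hydrolase that completes that route, had -0.13 in KO1 (adjusted p = 0.0354) and 0.14 in KO2 (adjusted p = 0.0186), and each call failed in several of the fits without 1 library (adjusted p up to 0.204 and 0.0769).

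Around ALDH1A3, 7 of 13 genes of retinal supply, retinoid binding and retinoic acid clearance were tested; 3 rose and 3 fell in KO1 (median -0.21) and 3 rose and 1 fell in KO2 (median 0.20). CRABP2, the carrier of retinoic acid to the nucleus, fell by 0.57 in KO1 (adjusted p = 0.000526) and rose by 0.89 in KO2 (adjusted p = 2.32e-06). RDH11, a retinal reductase, fell by 0.21 (adjusted p = 0.00222) and rose by 0.30 (adjusted p = 5.29e-05), and CYP26B1, which degrades retinoic acid, rose by 0.39 in KO1 (adjusted p = 0.00103). Of 15 receptors and targets of retinoic acid, 9 were tested, and 3 rose and none fell in KO1 while 2 rose and 2 fell in KO2 (medians 0.29 and 0.02). These 3 of 9 and 4 of 9 are near the 34.8% and 49.4% of all genes, and 6 of 7 and 4 of 7 were called on the list before; CYP26B1 and DHRS3 are on both lists. The KO1 count of risen genes ran from 2 to 5 over the alternative settings. TGM2, a transglutaminase induced by retinoic acid, was at 935 CPM in WT and rose to 1357 in KO1 (log2 0.54, adjusted p = 1.72e-06) but fell to 737.9 in KO2 (-0.34, adjusted p = 5.75e-05). DHRS3, another target, had 0.65 in KO1 (adjusted p = 0.047, lost in 5 of the 9 fits without 1 library) and 1.05 in KO2 (adjusted p = 0.00185).

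Around ALDH18A1, 6 of 8 genes of proline synthesis and breakdown were tested; none rose and 4 fell in KO1, and 1 rose and 2 fell in KO2 (medians -0.37 and -0.33), beside 16.8% of all genes down in KO1 and 49.4% called in KO2, so 3 of 6 in KO2 is at the background. This list holds ALDH18A1 itself and ALDH4A1, and the 4 that fell in KO1 were ALDH18A1, ALDH4A1, OAT and PYCR1. The count is therefore not separate from the results of these family genes given above. The KO1 count of fallen genes ran from 2 to 5 over the alternative settings. PYCR1, the reductase that completes proline synthesis, was at 61.7, 44.1 and 39.4 CPM in WT, KO1 and KO2 (log2 -0.48, adjusted p = 0.0355, and -0.65, adjusted p = 0.00737); with the GC trend removed these changes shrank to -0.16 and -0.22 but stayed called, and the KO1 call was lost without WT library 2 or 3, KO1 library 2 or 3 or KO2 library 1 (adjusted p up to 0.103). OAT, which links ornithine to the same intermediate, fell by 0.20 in KO1 (adjusted p = 0.00269) and rose by 0.17 in KO2 (adjusted p = 0.00514). Of 11 genes of the lysine, choline and polyamine routes of ALDH7A1 and ALDH9A1, 5 were tested, with 1 up in KO1 and 1 up and 2 down in KO2 (medians -0.12 and -0.13), or 1 of 5 and 3 of 5 beside the same 34.8% and 49.4%. AASS, which starts lysine breakdown ahead of ALDH7A1, fell by 0.49 in KO2 (adjusted p = 2.94e-06) and had 0.17 in KO1 (adjusted p = 0.0229, lost without WT library 1 or 2 or KO1 library 3), and SMOX, a spermine oxidase, fell by 0.63 in KO2 (adjusted p = 0.000157; -0.40 with the GC trend removed, adjusted p = 6.29e-05).

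The genes whose level followed the ALDH3 members most closely were found by Pearson correlation of log2 CPM over the 9 libraries among 10614 genes, given here as a description, since all points share library and group. ALDH3A2 was followed by OSBPL3 (r = 0.999), ARPC5L (0.998) and STOM (0.997), which changed by 0.60, 0.52 and 1.25 in KO2, and 571 genes exceeded 0.95, so a step between KO2 and the rest is a common pattern. ALDH3B1 was followed by ATP8B3 (r = 0.952), EHBP1L1 (0.945) and AMBRA1 (0.944), and 1 gene exceeded 0.95; none of these 3 was called in either clone.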

How the data were processed

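Total RNA of 9 libraries (3 per group) was sequenced after TruSeq preparation, per the labels. The authors deposited raw read counts per gene symbol, without normalization. The submitters' processing notes list Trim Galore, HISAT2 and, with no roles, a human build (hg38) besides mouse ones (GRCm38, mm10), while the symbols are human. Not given in the sources used here are the versions, counter, annotation, strand setting and handling of reads with several positions.

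Counts were fitted over all genes and all 9 libraries with edgeR 4.0.16 in R 4.3.3 (filterByExpr, 17759 genes kept; TMM scaling; robust quasi-likelihood test; 1 mean per group), and p-values were adjusted by Benjamini-Hochberg over all of them. All adjusted p-values are from this test unless another fit is named. Each standard error was derived from the log2 change and its quasi-F value. Library totals of 52427841 to 97243363 counts and a common biological variation of 7.46% set the precision. Between libraries of a group, chi-square per degree of freedom was 6.17 to 31.6, so none were treated as copies. Positions and lengths come from GENCODE 29 on GRCh38, in which 55878 of the 61155 symbols had an entry, and promoters from RefSeq. Of the 10 members 8 matched a promoter entry (not ALDH2 and ALDH3A1).

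DESeq2 1.42.0, limma-voom (limma 3.58.1), upper quartile scaling, other filters, a replicate block, removal of a GC trend (lowess, span 0.3), fits of only the groups compared and fits without each library were tried. Code was tested on simulated data. The members and lists were chosen with earlier results of these data known. Named genes are the 10 members, the tested genes of the rest of the family, FBXL12, up to 4 genes with the smallest p of each list, and the 3 genes most like each tested ALDH3 member; AKR1B10 was added after its values were seen.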

Additional observations from a re-analysis of the deposited data

Results flagged for a closer look

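For 6 members the effect differed between the clones by the edgeR test of KO1 against KO2, in which both clones' changes from WT are compared directly. The log2 difference (KO1 minus KO2) was -1.35 for ALDH2, -1.04 for ALDH3A2, -0.47 for ALDH18A1 and -0.28 for ALDH9A1, all lower in KO1, and 0.90 for ALDH1A3 and 0.22 for ALDH7A1, both higher in KO1. Each had an adjusted p of 0.00028 or less, where 48.9% of all genes were called between the clones at an adjusted p under 0.05. For each of the 6, every KO1 library lay on the same side of every KO2 library. The 6 were picked by a test on these same libraries, so this is no separate support. The share of all genes with such a separation was not counted. Neighbouring genes moved in the same direction between the clones around ALDH1A3 (median 0.71) and ALDH18A1 (median -0.37), and the part of these regional shifts was not tested. For ALDH1A3 the clones moved in the same direction by different amounts. With 1 clone per group, a difference between clones and a difference in what FBXL12 loss does cannot be told apart.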

How the results depend on the processing

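Of the called members (2 in KO1, 5 in KO2, 6 between the clones), each of the 13 calls held under DESeq2, limma-voom, upper quartile scaling, both other filters, fits of only the groups compared and removal of a GC trend. Without any single library the counts were 2 to 2, 5 to 5 and 6 to 6. With the GC trend removed 4 members were called in KO1, since ALDH3A2 (-0.14) and ALDH3B1 (0.23) passed, and ALDH3B1 also passed in KO2 (0.37) and between the clones (-0.14). Requiring a 1.5-fold change as well left 1, 2 and 3 members. Without the filter ALDH3A1 passed in KO2 and between the clones (6 and 7 members called). In a fit chosen after seeing the data, without the filter and without KO2 library 3, ALDH3A1 had 1.98 in KO2 (adjusted p = 0.355) and -5.50 between the clones (adjusted p = 0.0126), and ALDH1A1 had -3.51 in KO2 (adjusted p = 0.398) instead of 4.90 (adjusted p = 0.212). Merged exon length was also added after seeing the data.

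The replicate numbers are shared between groups, but same-numbered libraries did not visibly deviate together (correlations from -0.1 to 0.05). Differently numbered libraries had correlations from -0.093 to 0.105. With 3 libraries per group this cannot show whether the numbers stand for a shared batch, which the labels do not say. With a replicate block 2, 5 and 6 members were called, and 5544, 8302 and 8240 of all genes.

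Among values that were not called, the sign turned as follows, and the cause was not tested. With the GC trend removed, ALDH9A1 had -0.0243 in KO1 and ALDH1B1 0.0141 in KO2, which also had 0.0201 under upper quartile scaling, and ALDH18A1 in KO2 had -0.0056 without the filter. Over the 9 fits without 1 library, the KO1 value ran from -0.0003 (without WT replicate 1) to 0.057 for ALDH1B1, from -0.0319 (without KO1 replicate 1) to 0.1265 for ALDH3B1, from -0.0355 to 0.0133 (without WT replicate 3, and also above 0 without KO1 replicate 1 or 3) for ALDH7A1, and from -0.0382 (without KO1 replicate 2) to 0.0623 for ALDH9A1. The KO2 value ran from -0.0429 to 0.0141 (without WT replicate 2) for ALDH1B1 and from -0.0217 (without KO2 replicate 1, and also below 0 without KO1 replicate 2) to 0.0176 for ALDH18A1. Depth limits ALDH1A1 and ALDH3A1, whose levels outside KO2 library 3 rest on 0 to 5 counts.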
